A study of Drosophila melanogaster with 4 samples.

Results

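Ibf1 and Ibf2 sites were taken from the deposited ChIP-seq peak lists of antibodies against CG8436 (Ibf1) and CG9740 (Ibf2) in S2 cells, a line of Drosophila melanogaster cells that was derived from embryos. All 618 Ibf1 and 787 Ibf2 peaks entered, and peaks that shared at least 1 bp were merged, which gave 792 sites. Merged regions over all 3 peak lists of the study, CP190 included, numbered 2233. Each group was 1 library of S2 cells, with no genotype or treatment given in the labels, and each was called by the authors against the same Input library of genomic DNA. The antibodies were polyclonal, from rat for Ibf1 and Ibf2 and from rabbit for CP190. The lists give a chromosome, a start and an end, so the depth behind a site is unknown, and no measure of binding strength was at hand. Peak width is not read as such a measure. With no replicates, intervals cover counting error and p-values describe these lists alone.

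Insulators are DNA elements that restrict contacts between enhancers and promoters or between neighbouring chromatin domains. In Drosophila they are recognised by sequence-specific DNA-binding proteins, which recruit shared cofactors such as CP190, a BTB-domain zinc finger protein found at many insulator classes. Ibf1 and Ibf2 are named in the study's title as DNA-binding proteins that insulators require. Their genes are direct neighbours on 3R in the RefSeq gene table (Release 6), with 0 other records between them.

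Most sites had a single peak of each protein, a layout found at 603 sites. Ibf1 reached past Ibf2 at 1 or both edges in 35 of these, 22 of them in sequence not placed on a chromosome (U and Uextra). A further 5 sites had 2 Ibf1 peaks under 1 Ibf2 peak, no site had 2 Ibf2 peaks, 179 had Ibf2 alone and 5 had Ibf1 alone. Both proteins were thus called at 608 of 792 sites (76.8%, 95% exact interval 73.7 to 79.7). Of the 5 sites with Ibf1 alone, 4 were in Uextra and were 19 to 57 bp wide. The 1 on a placed chromosome, on 2R, was 15 bp wide. The sites covered 216.7 kb in all, with a median width of 267 bp (interquartile range 170 to 345, range 1 to 1415). The narrowest were calls of a few bases: 45 sites were under 50 bp wide and 4 had a start equal to their end. On the placed chromosomes, sites with both proteins had a median width of 299 bp (n = 565) and those with Ibf2 alone of 105.5 bp (n = 174).

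The Ibf2 peak usually extended past the Ibf1 peak at both edges, with similar medians for left and right but unequal lengths within a site. Over the 603 sites with 1 peak of each protein, the Ibf2 overhang was a median of 27 bp at the left edge (interquartile range 17 to 45, 95% interval of the median 25 to 29) and 28 bp at the right edge (16 to 48, 26 to 30). Ibf2 lay outside Ibf1 at both edges in 566 sites (93.9%, 91.6 to 95.6). The right overhang was the larger in 303 of the 587 sites where they differed and the left in the rest, a share of 48.4% (44.3 to 52.5) for the left whose interval includes 50%. Within a site the left and right overhangs differed by a median of 17 bp (interquartile range 7 to 40). The coordinates carry no strand for a site, so an orientation relative to a motif or a gene was not tested. Both overhangs fell between 10 and 50 bp in 47.1% of the 603 sites (43.1 to 51.2), and at least 1 exceeded 100 bp in 88 (14.6%). Both exceeded 100 bp in 7 sites, so long overhangs were mostly at a single edge. Left and right overhangs were related weakly across sites (Spearman's rho = 0.28, Pearson's r = 0.15, n = 603), and both are measured from the same pair of peaks.

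**Figure D1:**
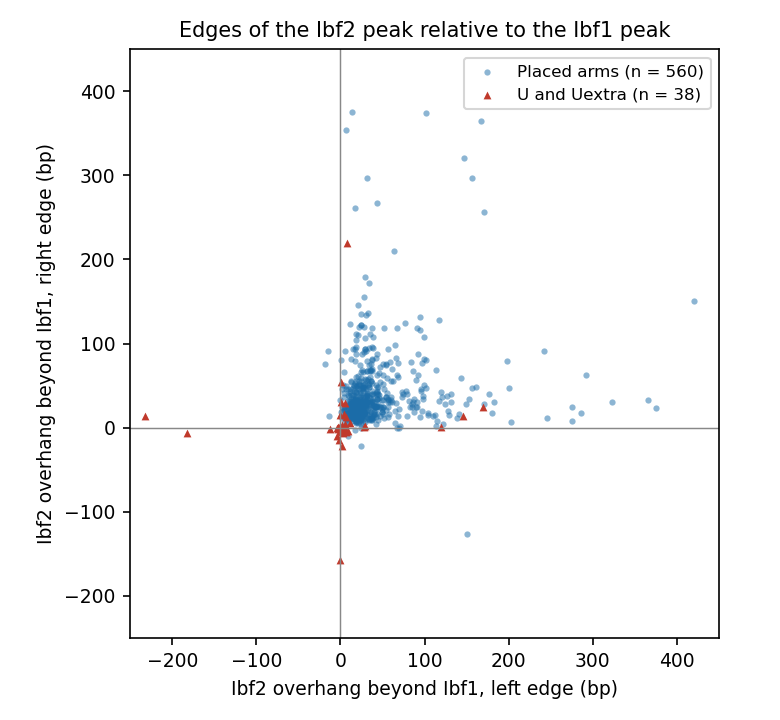
Overhang of the Ibf2 peak beyond the Ibf1 peak at the left edge (x axis, bp) and the right edge (y axis, bp), with 1 point per site that has 1 peak of each protein; negative values mean that Ibf1 extends farther. The 560 sites on placed arms (blue) lie mostly above 0 on both axes, 50.4% of them at 10 to 50 bp on each, and the 38 sites in unplaced sequence (red) lie mostly near 0 with a few far from it.

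Ibf1 width was the smallest share of Ibf2 width at sites with narrow Ibf2 peaks. The sites were divided into 4 groups of nearly equal number by Ibf2 width. In the group with the narrowest Ibf2 peaks (16 to 238 bp), the Ibf1 peak was a median of 89.5 bp wide against 195 bp for Ibf2, and the summed overhang was 72 bp (44 to 115). In the next groups it was 54 bp (36 to 84.3) and 50 bp (35 to 85.8), and in the widest (363 to 1415 bp) it was 71 bp (46 to 134). Ibf1 width as a share of Ibf2 width accordingly went from 59.8% in the narrowest group to 79.1%, 84.7% and 83.9% in the others. Ibf2 width includes the overhang, and across sites the summed overhang was related weakly to it (Spearman's rho = 0.09, Pearson's r = 0.30, n = 603). At sites whose Ibf1 peak was at or above its median width, the median overhangs were 23 bp on the left and 22 bp on the right. The median over all 603 sites was 78.9% (77.0 to 80.9). By arm the median ran from 72.9% on 2L to 80.9% on 2R, and it was 70.6% over the 8 such sites on chromosome 4.

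**Figure D2:**
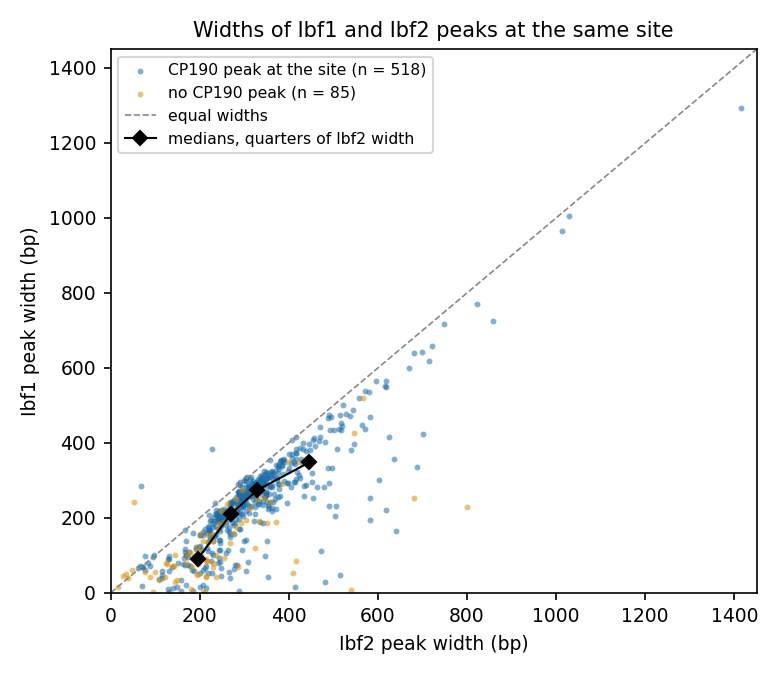
Width of the Ibf1 peak (y axis, bp) against that of the Ibf2 peak (x axis, bp) at the 603 sites with 1 peak of each protein, coloured by the presence of a CP190 peak. Points run below the dashed line of equal widths, and the black diamonds, medians of the 4 groups by Ibf2 width, go from 89.5 bp of Ibf1 at 195 bp of Ibf2 to 348 bp at 446 bp.

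On the placed chromosomes the longest overhangs exceeded 300 bp at 1 edge, and few sites had Ibf1 reaching past Ibf2. Positions are those of the deposited lists, in dm3. The largest left overhang was 420 bp, at 3R 4895303 to 4896102, where a 230 bp Ibf1 peak lay under an 800 bp Ibf2 peak with 150 bp free on the right. At 2L 6356670 to 6357288 the left overhang was 375 bp and the right 23 bp, and 2 CP190 peaks overlapped this site, the only one of the 792 with more than 1. On the right edge the largest was 375 bp at 3R 22976740 to 22977322, with 14 bp on the left. Next came 374 bp at X 21292888 to 21293528 and 365 bp at 2R 11783884 to 11784423, where the Ibf1 peak was 8 bp wide within 540 bp of Ibf2. Ibf1 reached past Ibf2 at 12 of the 560 placed sites. The farthest was 126 bp on the right at 3R 4893828 to 4894983. Elsewhere on the placed chromosomes the excess was at most 22 bp, at 3L 2554438 to 2554760.

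At the 5 sites with 2 Ibf1 peaks, the Ibf2 peak spanned a gap in Ibf1. The gap between the Ibf1 peaks was 344 bp at 2L 12546654 to 12547305, 307 bp at 3L 9504581 to 9505187, 381 bp at 3L 18839442 to 18839973, 343 bp at 3R 5084027 to 5085102 and 346 bp at chromosome 4 1133524 to 1134277. All these gaps were close to the smallest distance between neighbouring peaks of a list. The outer edges kept the usual overhang, 27 to 59 bp on the left and 11 to 44 bp on the right. A single CP190 peak overlapped 3 of these sites, 722 bp wide on 2L, 802 bp on chromosome 4 and 71 bp at the first 3L site, and CP190 was not called at the other 3L site or at the 3R site.

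In sequence not placed on a chromosome (U and Uextra, contigs rich in repeats), the edges of the lists lay closer together than on the placed chromosomes, although not at every site. Over 38 sites with 1 peak of each protein the overhang of Ibf2 was a median of 2 bp on the left (interquartile range -1.75 to 5.75) and 0.5 bp on the right (-4 to 11.25), against 28 bp (18 to 47) and 29 bp (18 to 49.3) over 560 sites on the placed chromosomes. Both edges agreed within 10 bp at 19 of 38 unplaced sites (50%, 33.4 to 66.6) and at 7 of 560 placed sites (1.25%, 0.504 to 2.56). Ibf1 was the wider peak at 17 of the 38 and at 3 of the 560. Median Ibf2 widths were 292.5 bp in unplaced sequence and 297.5 bp on the placed chromosomes. CP190 edges behaved alike: its left and right edges were both within 10 bp of those of Ibf2 at 14 of 30 unplaced sites (46.7%, 28.3 to 65.7) and at 21 of 478 placed sites (4.39%, 2.74 to 6.64), counting sites where 1 CP190 peak met 1 Ibf site. All 3 lists had 1 peak each at 32 unplaced sites, and at 12 of them (37.5%, 21.1 to 56.3) each edge lay within 20 bp over the lists, compared with 8 of 481 placed sites (1.66%, 0.721 to 3.25). Unlike the count before, this one keeps sites that share a CP190 peak with another Ibf site. The sites with the closest edges and the site with the widest spread of edges are given as examples. At Uextra 28090485 to 28090788 the Ibf1, Ibf2 and CP190 peaks were 299, 304 and 305 bp wide, their left edges lay within 5 bp and their right edges within 9 bp. At Uextra 3204644 to 3205001 the widths were 355, 358 and 371 bp and both edges lay within 8 bp. At Uextra 3142014 to 3142304, by contrast, Ibf peaks of 289 and 286 bp met a CP190 peak of 764 bp, and the right edges lay 702 bp apart. That CP190 peak also covered the next Ibf site, 297 bp away at 3142602 to 3143023, so its right edge belongs to that site. This difference was seen in the data and not planned, and no test was made of it.

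CP190 peaks mostly enclosed the Ibf1 peak, whereas their edges had no fixed order relative to those of Ibf2. CP190 overlapped 625 of the 792 sites, the 78.9% that serves as the background for the counts that follow. Of these, 512 had 1 peak of each Ibf protein and 1 CP190 peak that met no other Ibf site. CP190 extended past Ibf2 by a median of 8 bp on the left (interquartile range -19.3 to 35.5) and 7 bp on the right (-24 to 42.3). It lay outside Ibf2 at both edges in 201 sites (39.3%, 35.0 to 43.6), inside at both in 118 (23.0%, 19.5 to 26.9), and outside at 1 edge and inside at the other in 189 (36.9%, 32.7 to 41.3). Relative to Ibf1 it lay outside at both edges in 353 (68.9%, 64.7 to 72.9) and inside at both in 47 (9.18%, 6.82 to 12.0), with median overhangs of 31.5 bp on the left and 33 bp on the right. Ibf1 width relative to Ibf2 was 80.9% (66.8 to 88.6) at the 518 sites with CP190 and 59.8% (36.6 to 75.9) at the 85 without. The Ibf2 peaks of these sites also differed in width, with medians of 304.5 and 229 bp, and the part of width in the difference was not tested.

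Ibf sites lay about 100 kb apart along the arms, with wide variation. On 2L, 2R, 3L, 3R, 4 and X, where 740 sites left 734 gaps, the median edge-to-edge gap was 96.4 kb (interquartile range 37.6 to 201, 95% interval of the median 81.3 to 109). Gaps ran from 319 bp to 1449 kb. Within a list, neighbouring peaks on these chromosomes were never closer than 0.307 kb for Ibf1, 0.325 kb for Ibf2 and 0.3 kb for CP190. By arm the median was 96.7 kb on 2L, 73.9 kb on 2R, 94.5 kb on 3L, 96.9 kb on 3R, 67.4 kb on chromosome 4 and 149 kb on X. The intervals of these medians overlapped between 2L, 2R, 3L and 3R, while that of X (100.5 to 211) lay above that of 2R (62.3 to 97.2). The standard deviation of the gaps exceeded their mean on each large arm, by a factor from 1.09 on 2L to 1.28 on 2R. The value of 2R includes a gap of 1357 kb that is bounded by 1 Ibf2-only call of 42 bp. For Ibf1 peaks alone, which lack that call, the factor on 2R was 1.03.

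Once scaled for the number of sites, the shares of short and long gaps were close for Ibf sites and CP190 peaks. CP190 peaks had a median gap of 36.3 kb (34.0 to 38.2), from 2005 gaps on the same chromosomes. When each gap was divided by the mean gap of its arm and list, 84 of 721 Ibf gaps on the 5 large arms (11.7%, 9.40 to 14.2) and 221 of 1993 CP190 gaps (11.1%, 9.74 to 12.6) were under 0.1 of the mean. Gaps over 3 times the mean made up 5.55% (3.99 to 7.48) and 6.07% (5.06 to 7.21). The lists share sites, so these shares are not independent, and no test was made of them.

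**Figure D3:**
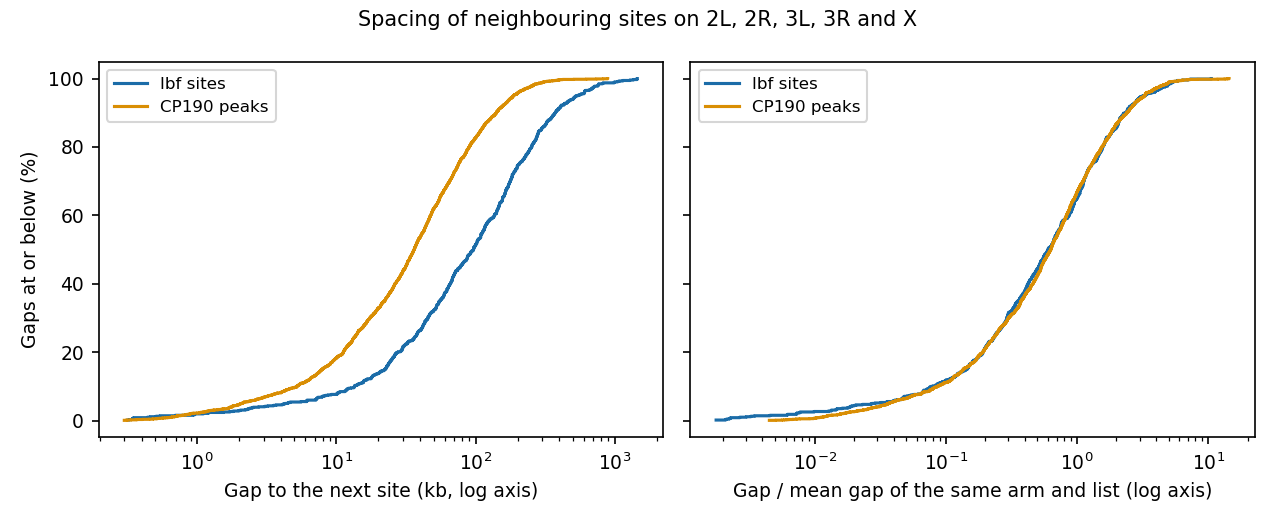
Cumulative share of gaps between neighbouring merged Ibf sites (blue) and CP190 peaks (orange) on the 5 large arms, in kb on a log axis (left) and divided by the mean gap of the same arm and list on a log axis (right). The Ibf curve lies to the right in kb, and the curves run together once scaled, apart from the shortest gaps.

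Close pairs of Ibf sites were few. Neighbours within 5 kb numbered 41 of 734 (5.59%, 4.04 to 7.5), of which 22 were within 2 kb and 15 within 1 kb. They were spread over the chromosomes, with 8 on 2L, 8 on 2R, 7 on 3L, 12 on 3R, 2 on chromosome 4 and 4 on X. In the 15 pairs within 1 kb, 5 had both Ibf proteins at each member, 9 paired such a site with a site of 1 protein, and 1 had Ibf2 alone at each. Both proteins were called at each member in 16 of 26 pairs 1 to 5 kb apart, in 111 of 195 neighbours 5 to 50 kb apart (56.9%) and in 286 of 498 farther apart (57.4%). The median widths of the narrower and the wider member were 126 and 248 bp within 1 kb and 231.5 and 319 bp at 1 to 5 kb. Neighbours farther apart were unequal in width too, with medians of 183 and 333 bp at 5 to 50 kb and 201 and 333 bp beyond. The median ratio of wider to narrower was 1.94 within 1 kb and 1.69 in each of the last 2 classes, and these differences were not tested.

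The closest pair was also one of the widest structures in the lists. At 3R 4893828 to 4894983 and 4895303 to 4896102, sites of 1156 and 800 bp were separated by 319 bp and both carried Ibf1 and Ibf2. CP190 was a 40 bp peak at the first of them and was not called at the second. The other 4 of the 5 widest sites were at 2R 21077002 to 21078416 (1415 bp), 3R 5084027 to 5085102 (1076 bp, without CP190), 3R 13442208 to 13443221 (1014 bp) and 3R 530908 to 531766 (859 bp). The site of 859 bp had an Ibf2-only neighbour of 71 bp 346 bp to its left. Small Ibf2-only calls of 6 bp at 3R 24748199 to 24748204 and 31 bp at 2R 12458820 to 12458850 likewise stood 340 and 344 bp from a site with both proteins. Gaps of this length lay near the smallest distance between neighbouring peaks of a list, so they are not read as a preferred spacing. At 3R 55278 to 55492 and 55818 to 55900 a site with both proteins and an Ibf2-only site lay 325 bp apart, and CP190 was called at neither. At 3R 16773820 to 16774002 and 16774354 to 16774507 both members were Ibf2 alone, 351 bp apart. On chromosome 4, an Ibf2-only site at 855661 to 855743 lay 359 bp from a site with both proteins at 856103 to 856507, and each had a CP190 peak. In 2 of the 10 closest pairs a single CP190 peak covered the gap, 1247 bp wide at X 1180266 to 1181217 (gap 440 bp) and 1137 bp wide at 2L 73212 to 74076 (gap 507 bp). The remaining pair, at 3R 23126326 to 23127395 with a gap of 460 bp, had both Ibf proteins at each member and CP190 at the second alone.

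**Figure D4:**
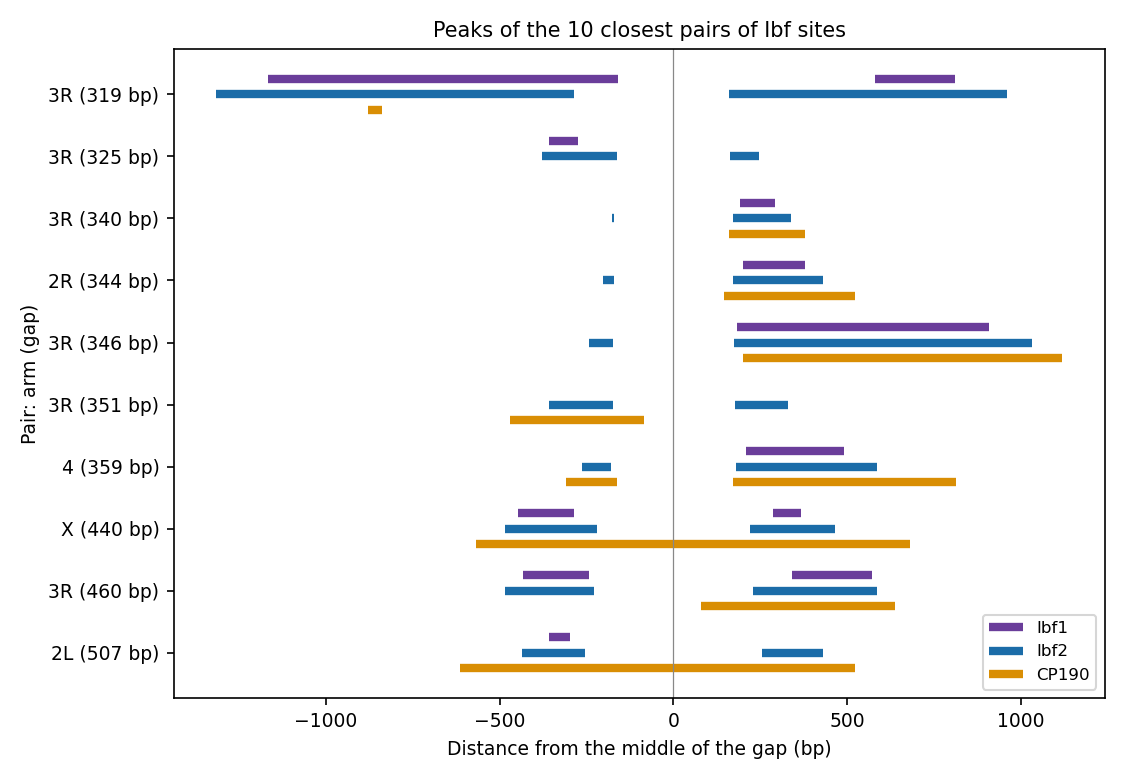
Peaks of Ibf1 (purple), Ibf2 (blue) and CP190 (orange) in the 10 closest pairs of Ibf sites, drawn to scale as distance from the middle of the gap (x axis, bp), with 1 row per pair labelled by its arm and gap. Ibf2 is present at all 20 sites, and a CP190 peak crosses the gap in the pairs on X and 2L.

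At the 5 kb limit no difference in CP190 was resolved between sites with and without a near neighbour. On the placed chromosomes, where CP190 overlapped 79.1% of sites, it was called at 57 of 78 sites with a neighbour within 5 kb (73.1%, 61.8 to 82.5) and at 528 of 662 others (79.8%, 76.5 to 82.8), with an odds ratio of 0.689 whose interval was 0.395 to 1.24 (two-sided Fisher's exact test, p = 0.185, Benjamini-Hochberg p = 0.651 over 4 tests). Both Ibf proteins, called at 76.4% of placed sites, were found at 56 of the 78 (71.8%) and 509 of the 662 (76.9%), with an odds ratio of 0.765 and an interval of 0.443 to 1.36 (p = 0.325 by the same exact test, adjusted p = 0.651). With a limit of 2 kb the shares for CP190 were 29 of 44 (65.9%) and 556 of 696 (79.9%), and the odds ratio was 0.487 with an interval of 0.245 to 1.01 (unadjusted exact p = 0.0349). For both Ibf proteins they were 27 of 44 (61.4%) and 538 of 696 (77.3%), and the odds ratio was 0.467 with an interval of 0.238 to 0.938 (unadjusted exact p = 0.0263). Neighbours are not independent of each other, since each close pair gives 2 sites. For both Ibf proteins, the makeup of a site and its neighbours come from the same Ibf intervals that defined the sites. Those p-values are therefore no independent test, and no conclusion is drawn from them. The 4 tests of the adjustment include tests of this kind, so the adjusted p-value of CP190 depends on them too.

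Most sites with Ibf2 alone lay more than 2 kb from a site with both proteins. The share within 2 kb was nevertheless larger than the matching share among sites with both. Of 174 Ibf2-only sites, 13 (7.47%, 4.04 to 12.4) lay within 2 kb of a site with both proteins, compared with 14 of 565 (2.48%, 1.36 to 4.12) for the distance from a site with both to the nearest other of its kind. These intervals overlap slightly, and the difference was not tested. The median distances were 48.9 kb (38.1 to 63.8) and 59.7 kb (52.5 to 68.0). The 155 sites without CP190 lay a median of 16.2 kb (12.4 to 21.2) from the nearest CP190 peak, and 22 of them (14.2%, 9.11 to 20.7) within 2 kb of one. No background distance was computed for other positions on the arms, so these values are not read as near or far.

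Longer runs were rarer still. With gaps of at most 10 kb there were 5 runs of 3 or more sites, each of exactly 3 sites. There were 3 runs when peaks under 50 bp were left out. The most compact spanned 4.31 kb at 3L 20470504 to 20474810, with sites of 265, 249 and 303 bp, each with both Ibf proteins and CP190. The run at 2R 8553330 to 8559061 (5.73 kb) was of the same kind, with sites of 272, 248 and 191 bp. At 2R 11703610 to 11709236 and at 3R 530491 to 537937 the runs included narrow Ibf2-only sites without CP190, of 19 bp in the first and of 71 and 41 bp in the second. The run at 2L 21677621 to 21683926 had both Ibf proteins at all 3 sites and lacked CP190 at the 127 bp site between wider ones. With gaps up to 20 kb there were 12 runs, the longest of 4 sites.

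Site density was lowest on X and highest on chromosome 4. Over the span called in any list it was 6.32 sites per Mb on 2L, 7.83 on 2R, 6.43 on 3L, 6.55 on 3R and 3.98 on X. Chromosome 4, the small and largely heterochromatic chromosome, had 12.0 per Mb from 14 sites. For each 100 CP190 peaks there were 26.5 Ibf sites on X, 36.8 on 3L and 3R, 38.7 on 2L and 41.4 on 2R. On chromosome 4 there were 108, as its 14 Ibf sites faced 13 CP190 peaks. Of these 14 sites, 9 had both Ibf proteins and 10 had CP190 (71.4%, 41.9 to 91.6). Widths on chromosome 4 ran from 51 bp at 1254868 to 1254918, an Ibf2-only site, to 754 bp at 1133524 to 1134277, and the Ibf2-only site at 679781 to 680254 was 474 bp wide.

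Along the 5 large arms, the part nearest the centromere held close to an even share of the sites when the arms were pooled. The called span of each arm was divided into 5 equal parts, ordered from the centromere side, which held 151, 166, 127, 138 and 144 of the 726 sites. The first part had 20.8% (95% exact interval 17.9 to 23.9), or 6.47 sites per Mb against a mean of 6.23. By arm the first part held 25.3% of sites on 3R (19.1 to 32.2), 25% on 2L (18.1 to 33.0), 19.7% on 3L (13.7 to 27.0), 19.3% on X (11.7 to 29.1) and 14% on 2R (9.10 to 20.3), with intervals that overlap. The second part held the most on X (29.5%, 20.3 to 40.2), 3L (26.3%) and 2R (26.2%), and the lowest share of any part was 11.8% (7.17 to 18.1), in the middle part of 3L. Differences between arms were not tested. CP190 peaks without an Ibf peak were densest in the part nearest the telomere, with 15.5 per Mb against a mean of 12.2, or 25.4% of 1424 (23.1 to 27.7), where Ibf sites had 19.8% of 726 (17.0 to 22.9). This difference was noticed in the data and was not tested.

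**Figure D5:**
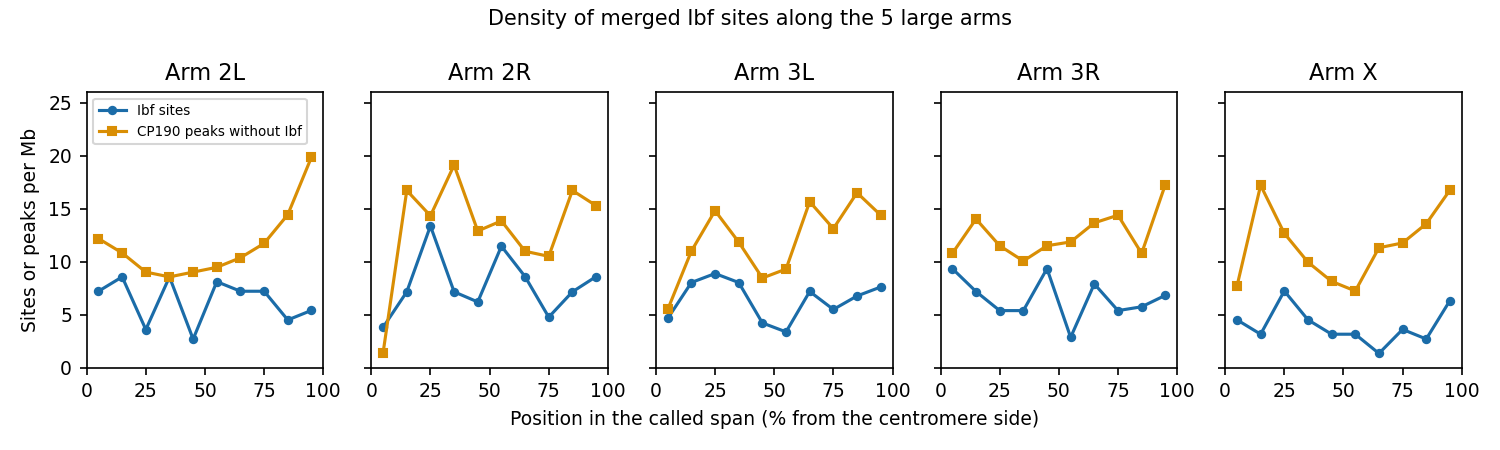
Merged Ibf sites (blue circles) and CP190 peaks without an Ibf peak (orange squares) per Mb in 10 equal parts of the called span of the 5 large arms, with position as a percentage from the centromere side. The Ibf values run from 1.36 to 13.4 per Mb, and they stay below that of the CP190 peaks except in the innermost part of 2R and, by equal values, at 35% of 2L.

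No difference in CP190 was resolved between the part nearest the centromere and the rest. CP190, present at 79.2% of sites on these arms, was called at 121 of 151 sites in the part nearest the centromere (80.1%, 72.9 to 86.2) and at 454 of the other 575 (79.0%, 75.4 to 82.2), with an odds ratio of 1.07 and an interval of 0.677 to 1.74 (p = 0.822 by the same exact test, adjusted p = 0.822). Both Ibf proteins, at 76.6% of sites on these arms, were called at 118 of the 151 (78.1%) and 438 of the 575 (76.2%), with an odds ratio of 1.12 and an interval of 0.716 to 1.78 (exact p = 0.666, adjusted p = 0.822). Intervals of this width leave room for moderate differences in either direction. The comparison of both Ibf proteins again used the intervals that defined the sites, so it is no independent test and no conclusion is drawn from it. Over the 5 parts from centromere to telomere the CP190 share was 80.1%, 78.3%, 82.7%, 71.0% (62.7 to 78.4) and 84.0% (77.0 to 89.6), a spread between the last parts that exceeds the contrast above and was not tested. Median site widths in the 5 parts were 281, 267, 258, 267 and 258 bp.

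On a scale of 1 Mb, 116 of 120 bins held at least 1 Ibf site, with a median of 6 (interquartile range 4 to 8). The fullest were 3R from 12 to 13 Mb with 17 sites and 2R from 5 to 6 Mb with 14. The fullest bins of 2L (7 to 8 Mb) and 3L (16 to 17 Mb) had 11 sites each, and that of X (17 to 18 Mb) had 9. The variance of the counts was 1.79 times their mean, and 2.18 times for CP190 peaks without Ibf. Counts of Ibf sites and of CP190 peaks without Ibf were related weakly over the 120 bins (Spearman's rho = 0.20), and the counts share the Input library and the span of each bin.

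The longest stretches without an Ibf site held CP190 peaks, at a lower density than that of all CP190 peaks of the same chromosome. Only CP190 peaks wholly inside a gap were counted, so those at the flanking Ibf sites are left out, which lowers the density. A gap can hold only CP190 peaks without an Ibf peak, whereas the chromosome values count all CP190 peaks. A lower value is therefore partly built in. Means of CP190 peaks without Ibf were 11.6 per Mb on 2L and X, 13.2 on 2R, 12.1 on 3L and 12.6 on 3R. Compared with these means, the gap was denser on 2L, about equal on X and less dense on 2R, 3L and 3R. On X no Ibf site was called between 13295565 and 14744469, a gap of 1449 kb with 17 CP190 peaks, or 11.7 per Mb against 15.0 over the arm. The gap of 1141 kb on 3L (11602885 to 12743923) held 12 CP190 peaks, 10.5 per Mb against 17.5. That of 1075 kb on 3R (13847127 to 14922000) held 10, or 9.30 per Mb against 17.8. The gap of 1357 kb on 2R, from 207651 to 1564395 at the centromere side of the arm, held 1, or 0.737 per Mb against 18.9. It is bounded by a single Ibf2-only call of 42 bp, the first site of the arm. Without that call, 2R would have no such gap. The gaps on 3R and X are each bounded on 1 side by an Ibf2-only call of 1 bp, at 13847127 and at 14744469. On 2L the gap of 815 kb (1909942 to 2724499) held 11, 13.5 per Mb against 16.3. On chromosome 4 that of 326 kb (110826 to 437090) held 2, or 6.13 per Mb against 11.2.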

How the data were processed

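Peaks were called by the authors for each library against Input, per the series' design text. Per the submitters' processing notes, positions are in dm3 and the software named is CASAVA 1.8.2. Which aligner, caller and thresholds were used is not given in the sources used here. The deposited files hold 3 columns, so their values are positions in bp, printed as deposited. Widths count the end base as well as the start base. Depth per library is unknown. No dm3 genome or annotation was used, so sites are not assigned to genes and no sequence is shown.

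Peaks of the Ibf lists that shared 1 bp or more were merged, reading intervals as closed. Gaps are the bases between neighbouring sites. An arm's span runs from the first to the last position called in any list. The centromere side is the end of 2L, 3L and X and the start of 2R and 3R. Intervals of shares are 95% exact (Clopper-Pearson) and those of medians are binomial order-statistic intervals. Libraries were amplified by PCR, per the labels' protocols, so reads are not independent molecules, and intervals cover counting error only. The 4 Fisher's exact tests were adjusted by the Benjamini-Hochberg method. The interval functions and the odds ratio were tested on simulated data. Members, site lists and tests were chosen with earlier results of these data known. Named sites followed a rule: the 10 closest pairs, the 5 runs with most sites, the longest gap per chromosome, the 5 widest sites, the largest overhangs, sites with 2 peaks of a protein, sites on chromosome 4 and the fullest 1 Mb bin per arm, of which the text gives a selection. The Uextra sites and the small excesses of Ibf1 were named after their values were seen. The computations ran with SciPy 1.17.1, statsmodels 0.14.6, NumPy 2.4.6, matplotlib 3.10.9, pandas 2.3.3 under Python 3.11.15.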

Additional observations from a re-analysis of the deposited data

How the results depend on the processing

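Of 52 values over all alternatives, 33 were counted as the same: within their interval, within 1.5 times a count or on their side of a test's threshold. The other 19 included 2 odds ratios that crossed 1 but stayed inside their main interval. When peaks narrower than their list's median were left out, there were 406 sites, a median gap of 181.6 kb and 6 pairs within 5 kb, as fewer peaks enter. Ibf1 peaks alone gave a median gap of 125.9 kb and 26 pairs. A 2 kb limit left 22 pairs and gave odds ratios of 0.487 for CP190 and 0.467 for both Ibf proteins, both past an unadjusted 0.05 in Fisher's exact test. The interval for CP190 (0.245 to 1.01) included 1, and each close pair gives 2 sites that are not independent. The comparison of both Ibf proteins used the intervals that defined the sites. No conclusion is drawn from either. Runs numbered 3 without peaks under 50 bp and 12 with gaps up to 20 kb. With each arm in 10 parts, the innermost compared with the rest, the odds ratios turned to 0.978 for CP190 and 0.968 for both Ibf proteins, neither distinguishable from 1. With Ibf1 peaks at or above their median width the overhangs were 23 bp on the left and 22 bp on the right, and the width ratio was 86.7%. In U and Uextra alone, an alternative added after seeing the data, the overhangs were 2 and 0.5 bp, the left was the larger in 55.3%, and the width ratio was 99.1%. The causes of these shifts were not tested. No paired analysis was possible because each antibody had 1 library.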

Other observations

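On the mitochondrial genome, 2 sites were called, an Ibf2-only site of 125 bp at 1777 to 1901 and a site with both Ibf proteins at 3565 to 3640, and CP190 was called at neither. At the second, the Ibf1 and Ibf2 peaks were 55 and 76 bp wide. The Het scaffolds held 5 sites, 2 on 2RHet and 3 on 3RHet, and CP190 overlapped all 5. In all 3 lists together, 3 CP190 peaks each overlapped more than 1 Ibf site, of which 2 lay in the close pairs on X and 2L.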
